A study of Homo sapiens with 6 samples.

Results

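Mucin and secretory lineage genes were followed in DLD-1, an established line from a human colorectal cancer, after siRNA against AHR. AHR is the aryl hydrocarbon receptor, which enters the nucleus on binding a ligand and acts there as a transcription factor. The 10 genes were listed by symbol and matched to the Ensembl gene IDs of the count tables, out of 60483 genes listed there: the mucins MUC1, MUC2, MUC5AC, MUC13 and MUC20, the trefoil factors TFF1 and TFF3, the disulfide isomerase AGR2, the transcription factor SPDEF and the kallikrein KLK10. RNA-seq counts came from 3 libraries of cells transfected with control siRNA and 3 of cells transfected with AHR siRNA, all grown in RPMI-1640 with fetal bovine serum. The labels name no untransfected cells, no siRNA sequence and no time after transfection, and they do not say whether the replicates were separate cultures. If they were not, the p-values reflect technical spread alone. Of the 10 genes, 9 passed the filter on low counts, and SPDEF did not.

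The mucus of the intestine is built from gel-forming mucins such as MUC2, which goblet cells store and release, while transmembrane mucins such as MUC1 and MUC13 stay anchored at the apical surface and form part of the glycocalyx. MUC5AC is the gel mucin of the stomach and airway and appears in part of colorectal cancers, although the normal colon hardly makes it. Trefoil factors are small disulfide-rich peptides secreted with mucins, AGR2 is an endoplasmic reticulum protein needed for mucin folding, and SPDEF is an ETS family factor that drives goblet cell maturation downstream of ATOH1.

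Of the 9 tested genes, 2 were called higher in AHR siRNA libraries (MUC5AC and MUC20), 2 were called lower (MUC13 and KLK10) and 5 were not called (MUC1, MUC2, TFF1, TFF3 and AGR2). A gene was called at an adjusted p under 0.05 in edgeR's quasi-likelihood test with Benjamini-Hochberg adjustment over all 14900 tested genes. Over those genes 60.1% were called, 30.0% higher and 30.1% lower, so the members' count of calls is not above the background. The median log2 fold change of the 9 was 0.05, against 0.01 over all tested genes. MUC13 and KLK10 lay toward the lower end of the distribution, with a log2 fold change below theirs in 3.56% and 3.34% of the tested genes.

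The library totals ran from 11567736 to 15037145 counts. The targeted gene, AHR, was lower in all 3 AHR siRNA libraries. Its levels were 95.8, 87.4 and 94.95 CPM (counts scaled to library depth with TMM factors), against 117, 144 and 132 CPM in the controls, or 70.9% of the control mean. In GENCODE 29, 29.4% of the exon bases of AHR also belong to AC019117.2 on the same strand, a gene that is not among those listed in the count tables. Of 12 markers of colorectal epithelium, 11 passed the filter, and the keratin KRT8 led them with 6359 ± 485 CPM in control and 3902 ± 90.6 CPM in AHR siRNA libraries (SD, n = 3 each). Of these 11 markers 6 were called lower and 1 (VIL1, villin) higher, against 30.1% and 30.0% of all tested genes, and their summed level was 12049 to 13621 CPM in control and 8431 to 8777 CPM in AHR siRNA libraries. KRT8 and KRT18 made up most of that sum, and KRT18 went from 2829 ± 271 to 1756 ± 65.8 CPM (SD, n = 3 each). KRT19, KRT20, CLDN3 and CLDN4 were not called. The part of the 11 markers in the members' values was not tested. Of 15 markers of fibroblasts, leukocytes, red cells and endothelium, 4 passed (PDGFRB and VWF called higher, COL1A1 and CD14 lower; PDGFRB passed through its AHR siRNA and COL1A1 through its control libraries alone), none above a mean of 2.56 CPM over the 6 libraries. The summed level of all 15 was 6.77 to 9.003 CPM in control and 6.90 to 7.87 CPM in AHR siRNA libraries. DCN and LUM had no count in any library and PTPRC had 0 to 2 counts per library.

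The upstream regions of MUC13 and KLK10, which fell, and of AGR2, which was the most abundant member and was not called, are shown because a factor such as AHR acts through such regions. RefSeq gave a start site for 6 of the 10 genes on GRCh38.p14, and MUC5AC, MUC20, TFF1 and TFF3 had no entry in the table used here. Each line holds the 250 bases before the start site, 5′ to 3′ along the gene, with matches to 4 motifs in capitals. The motif GCGTG (reverse strand CACGC) is the core bound by AHR with its partner ARNT. The motif AGGAAG (reverse strand CTTCCT) is an ETS family core. The motif GGGTGTG (reverse strand CACACCC) is a core of KLF factors. The last motif is TATAAA (reverse strand TTTATA). Both strands were searched, and no matches overlap in these regions. MUC13 lies at chr3:124934752-124935001 on the minus strand, KLK10 at chr19:51019862-51020111 on the minus strand (the first of 2 start sites) and AGR2 at chr7:16805000-16805249 on the minus strand.
MUC13: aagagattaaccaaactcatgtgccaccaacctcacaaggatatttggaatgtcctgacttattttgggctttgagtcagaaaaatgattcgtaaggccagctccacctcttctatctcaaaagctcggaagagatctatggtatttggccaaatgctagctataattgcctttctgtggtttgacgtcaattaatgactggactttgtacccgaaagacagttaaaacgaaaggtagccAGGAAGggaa
KLK10: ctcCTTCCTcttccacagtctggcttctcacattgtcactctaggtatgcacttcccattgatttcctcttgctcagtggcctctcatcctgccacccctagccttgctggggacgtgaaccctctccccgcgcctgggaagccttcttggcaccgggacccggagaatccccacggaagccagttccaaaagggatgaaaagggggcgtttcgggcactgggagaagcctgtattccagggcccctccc
AGR2: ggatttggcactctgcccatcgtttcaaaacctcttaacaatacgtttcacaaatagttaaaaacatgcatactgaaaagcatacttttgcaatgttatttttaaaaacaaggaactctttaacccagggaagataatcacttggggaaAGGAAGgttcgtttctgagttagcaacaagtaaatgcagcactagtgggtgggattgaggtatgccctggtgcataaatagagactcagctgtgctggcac
The only capitals are AGGAAG, which begins 10 bases before the start site in MUC13 and 101 bases before it in AGR2, and its reverse 247 bases before it in KLK10. GCGTG was in none of the 8 upstream regions listed for the 6 genes, and 32.2% of 35116 RefSeq regions of this length hold it. AGGAAG was in 7 of the 8, against 28.7% of all, and the exception was the second KLK10 start site. The 2 regions of MUC1 overlap, as do those of KLK10. These are matches of letters only.

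MUC13, a transmembrane mucin of the intestinal surface with EGF-like domains, was lower in AHR siRNA cells. Control replicates 1, 2 and 3 held 51.1, 44.3 and 45.8 CPM, and the AHR siRNA replicates in the same order 21.2, 19.6 and 21.5 CPM. Every AHR siRNA library lay below every control library, and the spread within each group was small beside the gap. The means were 47.1 ± 3.6 and 20.8 ± 1.0 CPM (SD, n = 3 each), so 44.1% of the control level remained (log2 fold change -1.18, SE 0.09, edgeR adjusted p = 1.04e-09). AHR siRNA libraries lay below all controls for 31.7% of the tested genes. In bulk RNA, fewer cells that express a gene and less RNA per cell cannot be told apart.

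MUC1, the transmembrane mucin best known from breast and pancreatic cancer, was scarce and showed no detectable difference. The controls held 32, 34 and 39 counts and the AHR siRNA libraries 31, 42 and 32, or 2.58 ± 0.36 and 2.67 ± 0.38 CPM (SD, n = 3 each). The groups overlapped fully. The log2 fold change was 0.05 with a 95% interval from -0.42 to 0.52 (edgeR adjusted p = 0.855), so changes up to about that size in either direction were not detectable at this depth.

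MUC20, a transmembrane mucin that associates with the MET receptor, was higher in AHR siRNA cells. Its levels were 30.2, 24.8 and 24.2 CPM in the controls and 36.6, 39.1 and 34.0 CPM in the AHR siRNA libraries. The groups did not overlap, as for 63.7% of all tested genes, and the nearest libraries were control replicate 1 and AHR siRNA replicate 3. The rise was to 139% of control, and the log2 fold change was 0.47 (SE 0.10, edgeR adjusted p = 0.000291). In GENCODE 29, 42.8% of the exon bases of MUC20 also belong to MUC20-OT1, a transcript of the same strand, and MUC20P1 is a pseudogene copy, so the value of MUC20 is uncertain. MUC20-OT1 went from 41.4 ± 1.6 to 37.0 ± 2.3 CPM (edgeR adjusted p = 0.0840) and MUC20P1 from 10.4 ± 0.7 to 12.4 ± 0.3 CPM (adjusted p = 0.0585), SD with n = 3 each, and neither was called. MUC20-OT1 was called lower without control siRNA replicate 1 (-0.20, edgeR adjusted p = 0.0372) and with GC and length trends removed (-0.23, adjusted p = 0.00706), and MUC20P1 was called higher in 4 of 15 alternatives, library totals among them (0.41, adjusted p = 0.00522). Both were looked up after the value of MUC20 was seen.

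**Figure D1:**
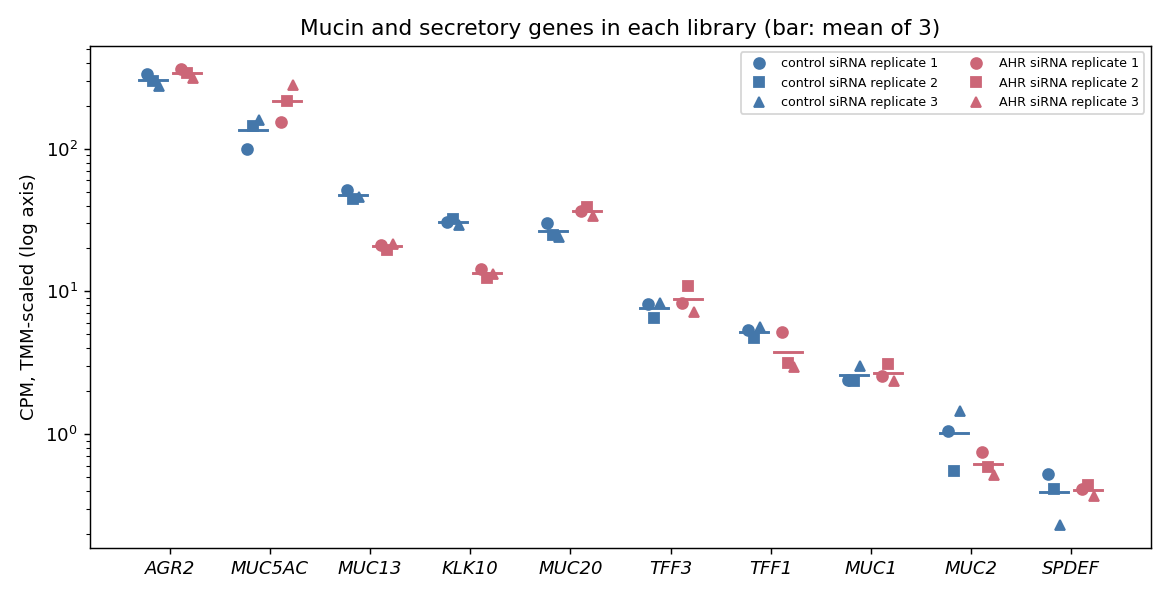
Level of each of the 10 genes in each library, in CPM on a log axis, with control siRNA in blue, AHR siRNA in red and a bar at the mean of 3. MUC13 and KLK10 sit lower in every AHR siRNA library, MUC20 sits higher in every one, and control replicate 3 of MUC5AC (159 CPM) lies just above AHR siRNA replicate 1 (155 CPM).

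MUC5AC, a gel-forming mucin, was the most abundant gel mucin transcript per length among the members and was called higher. Control replicates 1, 2 and 3 held 100.4, 145 and 159 CPM, and the AHR siRNA replicates in the same order 155, 216 and 279 CPM. The groups overlapped, since control replicate 3 exceeded AHR siRNA replicate 1. The means were 135 ± 31 and 217 ± 62 CPM (SD, n = 3 each), or 161% of control. The log2 fold change was 0.69 (SE 0.16, edgeR adjusted p = 0.000956).

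The spread of MUC5AC between libraries of 1 group was unusual for its abundance. Its coefficient of variation was 22.7% in control and 28.6% in AHR siRNA libraries, against medians of 5.89% and 5.78% over the 8043 genes whose mean reached 20 CPM, of which 99.7% and 99.98% varied less. MUC5AC has a long, GC-rich transcript (17.4 kb and 60.3% GC in GENCODE 29). The 50 other tested genes with a longest transcript of at least 8 kb and at least 60% GC shifted between the same libraries: their median deviation from the mean of their own group was -0.21, 0.09 and 0.11 (log2 CPM) in control replicates 1 to 3, where MUC5AC deviated by -0.40, 0.13 and 0.27. In AHR siRNA replicates 1 to 3 the median was -0.19, 0.07 and 0.14, and MUC5AC deviated by -0.44, 0.04 and 0.40. Replicate 1 was thus the lowest of its group by both measures in both groups. With each library's trend with GC content and length removed, an alternative added after the data were seen, the log2 fold change of MUC5AC between groups was 0.47 (SE 0.11, edgeR adjusted p = 0.00110). It was also 0.47 without AHR siRNA replicate 3 (SE 0.13, adjusted p = 0.00384). The part of the shift between libraries in the difference between groups was not tested.

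**Figure D2:**
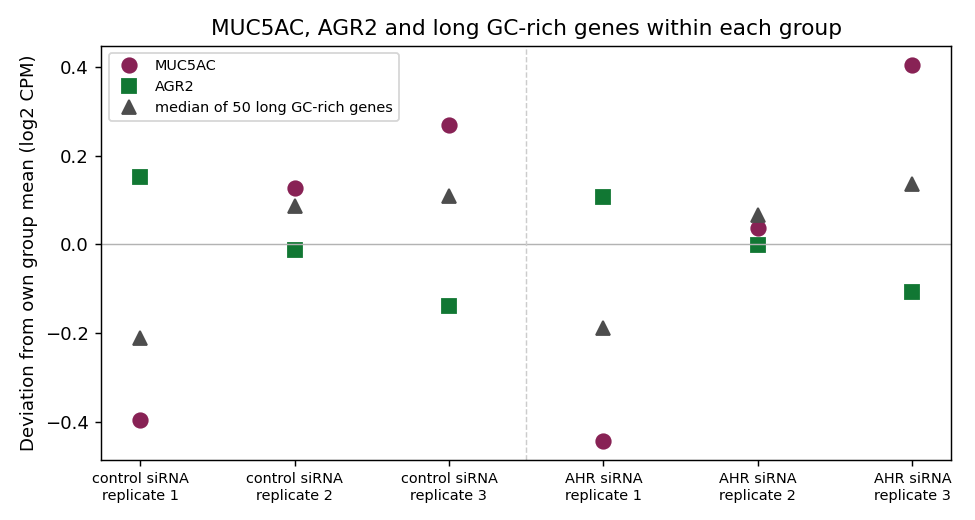
Deviation of each library from the mean of its own group, in log2 CPM, for MUC5AC, for AGR2 and for the median of 50 other long GC-rich genes. MUC5AC and the long genes are lowest in replicate 1 of both groups (-0.40 and -0.44 for MUC5AC), where AGR2 is highest.

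MUC2, the gel mucin of normal goblet cells, was close to the floor. The controls had 14, 8 and 19 counts and the AHR siRNA libraries 9, 8 and 7, or 1.02 ± 0.46 and 0.616 ± 0.118 CPM (SD, n = 3 each). Control replicate 2 fell within the range of the AHR siRNA libraries, so the groups overlapped. The log2 fold change was -0.71 with a 95% interval from -1.58 to 0.15 (edgeR adjusted p = 0.146), and MUC2 was called only without control siRNA replicate 2 (-1.03, edgeR adjusted p = 0.0436). Per kilobase of exon the control level of MUC5AC was 7.72 ± 1.76 CPM and that of MUC2 was 0.0806 ± 0.0359 CPM (SD, n = 3 each).

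The neighbours of these 2 genes in the gel mucin cluster on chromosome 11 are MUC6, the mucin of gastric glands, and MUC5B, the main gel mucin of the airway. MUC6 went from 3.23 ± 0.475 to 5.76 ± 0.645 CPM (SD, n = 3 each) and was called higher (log2 fold change 0.84, SE 0.18, edgeR adjusted p = 0.000616). MUC5B stood at 4 to 15 counts in every library and was not called (-0.07, 95% interval -0.99 to 0.85).

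TFF1, the trefoil factor of gastric surface cells, was lower on average without passing the test. It held 71, 68 and 73 counts in the controls and 63, 43 and 40 in the AHR siRNA libraries, or 5.33, 4.69 and 5.62 against 5.22, 3.16 and 2.94 CPM. AHR siRNA replicate 1 lay among the controls and the others below them. The log2 fold change was -0.48 with a 95% interval from -0.91 to -0.04 (edgeR adjusted p = 0.0551). TFF1 passed in 6 of 15 alternatives, and without AHR siRNA replicate 1 the value was -0.77 (edgeR adjusted p = 0.00463).

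TFF3, the trefoil factor of intestinal goblet cells, did not pass the test in any of the 15 alternatives. Its levels were 8.18, 6.49 and 8.31 CPM in the controls and 8.28, 10.96 and 7.20 CPM in the AHR siRNA libraries. The groups overlapped, with AHR siRNA replicate 2 alone above all controls. The log2 fold change was 0.21 (95% interval -0.13 to 0.55, edgeR adjusted p = 0.282). TFF2, which lies between TFF3 and TFF1 on chromosome 21, had 3 to 8 counts per library and was not tested.

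AGR2 was by far the most abundant member, also per length. It stood at 336, 299.8 and 274 CPM in the controls and at 364, 337 and 314 CPM in the AHR siRNA libraries. The groups overlapped, and the means of 303 ± 31 and 338 ± 25 CPM (SD, n = 3 each) differed by a log2 fold change of 0.16 (95% interval -0.01 to 0.32, edgeR adjusted p = 0.0893). The call turned on the scaling and on single libraries: AGR2 was called higher with library totals alone (0.31, edgeR adjusted p = 0.00170), with upper-quartile factors (0.24, adjusted p = 0.0145), without control siRNA replicate 1 (0.23, adjusted p = 0.00227), without AHR siRNA replicate 3 (0.21, adjusted p = 0.0423) and with GC and length trends removed (0.26, adjusted p = 0.000630). AGR2 was also called higher with a replicate block (0.16, edgeR adjusted p = 0.00599), the last of the 6 alternatives that called it. On chromosome 7 RefSeq lists AGR2, its paralog AGR3 and AHR next to each other, in that order. AGR3 had 0 to 3 counts per library.

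SPDEF had 7, 6 and 3 counts in the controls and 5, 6 and 5 with AHR siRNA, too few for the test. This is 0.390 ± 0.149 and 0.408 ± 0.037 CPM (SD, n = 3 each), and 3 counts correspond to 0.207 to 0.248 CPM in these libraries. With no filter on low counts the log2 fold change was 0.04 (SE 0.61, edgeR adjusted p = 0.990). The upstream factor ATOH1 had 1 count in a single control library and none in the other 5, so both goblet cell factors were at or near the floor in both groups.

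KLK10, a secreted serine peptidase of the kallikrein family, was lower in AHR siRNA cells by about as much as MUC13. It stood at 30.8, 32.1 and 29.2 CPM in the controls and 14.4, 12.4 and 13.3 CPM in the AHR siRNA libraries. The groups were far apart, and their means were 30.7 ± 1.4 and 13.4 ± 1.0 CPM (SD, n = 3 each), or 43.6% of control (log2 fold change -1.20, SE 0.10, edgeR adjusted p = 3.18e-09). The longest annotated 3′ UTR of KLK10 holds the word CACAACA, as does that of TFF1, and the other members with an annotated 3′ UTR, MUC13 among them, hold neither CACAACA nor GACTTAA. These 2 words were picked in an earlier analysis of the same fold changes, so their shares are no independent evidence. Of 2458 tested genes with either word, 43.9% were called lower and 25.1% higher, against 31.3% and 31.6% of 9948 genes with neither. The words were sought in the longest annotated 3′ UTR of each gene, and the 2 sets were not matched for its length. The part of the word in the change of KLK10 was not tested.

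**Figure D3:**
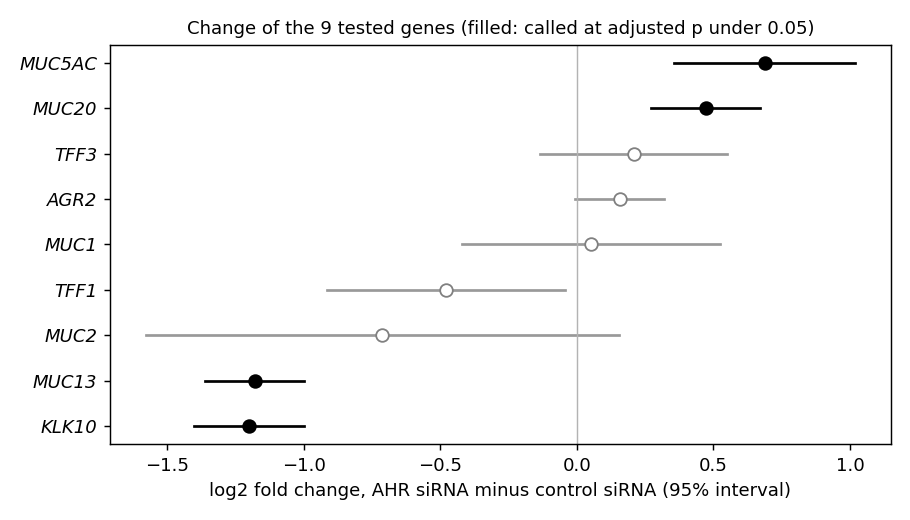
Log2 fold change of the 9 tested genes, AHR siRNA minus control siRNA, with 95% intervals; filled points passed an adjusted p of 0.05. KLK10 and MUC13 lie near -1.2, MUC20 and MUC5AC lie above 0, and the intervals of MUC2, AGR2, MUC1 and TFF3 include 0, as that of TFF1 does not.

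Together the 10 genes made up 566, 560.02 and 552 CPM in the control libraries and 608, 643 and 675 CPM in the AHR siRNA libraries. The sum was higher in every AHR siRNA library, and most of it was AGR2 and MUC5AC. AGR2 gave 49.7% to 59.4% of the sum in control and 46.5% to 59.8% in AHR siRNA libraries, and MUC5AC gave 17.7% to 28.9% and 25.5% to 41.4%. Without these 2 genes the sum went the other way, from 121 ± 7 to 87.0 ± 4.2 CPM (SD, n = 3 each), with 116 to 129 CPM in the controls and 82.2 to 89.5 CPM in the AHR siRNA libraries. Within it the means of MUC13 went from 47.1 to 20.8 CPM and those of KLK10 from 30.7 to 13.4 CPM. MUC20 rose from 26.4 to 36.6 CPM, and the remaining members changed by less, in both directions. These sums carry no test.

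Per kilobase of exon, AGR2 led in both groups, with 106.6 ± 10.8 and 119 ± 9 CPM per kb (SD, n = 3 each). In control cells MUC13 came next at 13.5 ± 1.0, then TFF1 at 9.46 ± 0.86, KLK10 at 7.97 ± 0.37, MUC5AC at 7.72 ± 1.76, TFF3 at 6.56 ± 0.87 and MUC20 at 6.21 ± 0.77 CPM per kb. The libraries of KLK10, MUC5AC, TFF3 and MUC20 overlapped from each to the next, so neighbours in this order are not resolved. Every control library of KLK10 (7.59 to 8.33 CPM per kb) lay above those of TFF3 and MUC20 (at most 7.11 and 7.10 CPM per kb). The control libraries of TFF1 (8.52 to 10.2 CPM per kb) overlapped those of MUC5AC (5.75 to 9.13 CPM per kb). In AHR siRNA cells MUC5AC was the second at 12.4 ± 3.6, followed by MUC20 at 8.61 ± 0.60, while MUC13 was the sixth at 5.94 ± 0.29 and KLK10 the seventh at 3.47 ± 0.26 CPM per kb. MUC1, SPDEF and MUC2 were the last 3 in both groups, none above 0.566 CPM per kb. With the longest transcript in place of all exons MUC13 was still second in control cells, but MUC20 rather than MUC5AC came second in AHR siRNA cells, and the libraries of the 2 overlapped under either length. By longest transcript MUC13 ranked 5 rather than 6 in AHR siRNA cells, and its libraries overlapped those of TFF1 under either length.

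**Figure D4:**
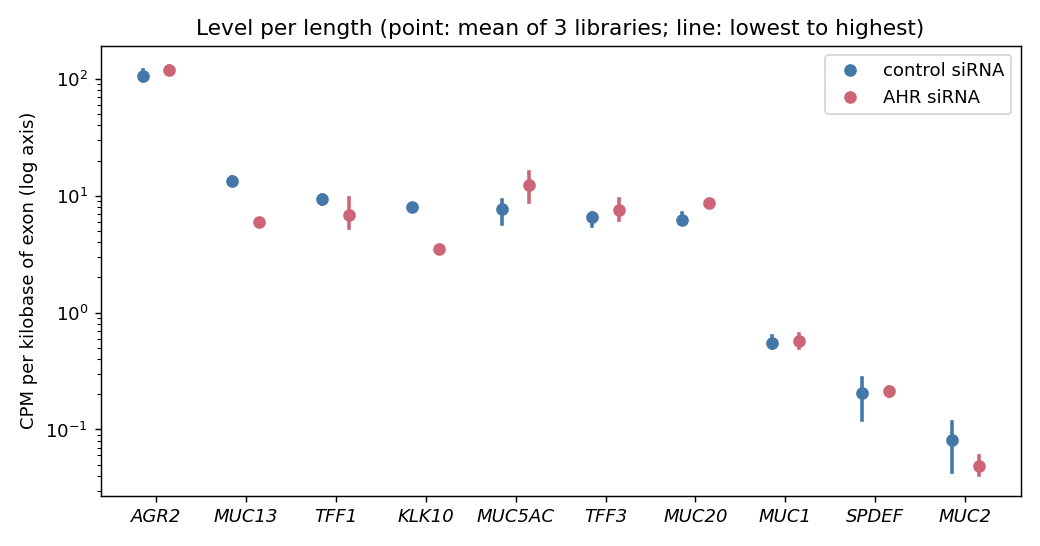
Level of the 10 genes per kilobase of exon in GENCODE 29, on a log axis, as the mean of 3 libraries with a line from the lowest to the highest. AGR2 is the highest in both groups, and MUC13 moves from second (13.5 CPM per kb) in control to sixth (5.94 CPM per kb) in AHR siRNA cells, where its libraries overlap those of TFF1.

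Other mucins were few. Of 18 listed, 6 passed the filter and 8 had no count in any library. Among the 6, 3 were called higher and 1 lower (median log2 fold change 0.20), a share of calls near the 60.1% over all tested genes. The shares were 50% higher and 16.7% lower, against 30.0% and 30.1% over all tested genes. The sialomucin genes among them are expressed well beyond mucus-producing cells: PODXL, podocalyxin, rose from 189 ± 15.9 to 263 ± 17.5 CPM, whereas CD164, endolyn, fell from 178 ± 7.73 to 103 ± 0.81 CPM (SD, n = 3 each). OVGP1, a secreted glycoprotein of the oviduct, rose from 7.64 ± 1.22 to 13.8 ± 2.4 CPM (SD, n = 3 each). Among transmembrane mucins, MUC4, MUC12, MUC16 and MUC17 had at most 7 counts in any library. MUC3A had 13, 15 and 10 counts in the controls and 8, 10 and 7 with AHR siRNA, without overlap, and was not called (log2 fold change -0.54, edgeR adjusted p = 0.218). Apart from MUC4 these were named after their values were seen.

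Other goblet cell products were called in both directions. Of 24 listed, 10 passed the filter, 6 were called higher and 2 lower, with a median of 0.40, against 30.0% higher and 30.1% lower over all tested genes. SPINK4 and KLK15 passed the filter through their AHR siRNA libraries alone and REG4, SPINK1 and PIGR through their control libraries alone, so the count is no support for a direction. The tetraspanin gene TSPAN1 rose to 189% of control, from 39.8 ± 2.7 to 75.0 ± 2.1 CPM, and ERN2, the goblet cell form of the unfolded protein sensor IRE1, rose to 161%, from 35.7 ± 1.9 to 57.6 ± 1.4 CPM (SD, n = 3 each). KLK1, tissue kallikrein, rose to 143%. BCAS1 fell to 42.1% of control, from 8.74 ± 0.40 to 3.68 ± 0.46 CPM, and REG4, a secreted lectin of goblet and endocrine cells, to 32.1%, from 2.58 ± 1.12 to 0.827 ± 0.307 CPM (SD, n = 3 each). CLCA1, FCGBP, ZG16 and ITLN1, which mark mature goblet cells and were also named after their values were seen, had at most 16 counts in any library.

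Among 18 factors that set or oppose the secretory fate, 12 passed the filter, 7 were called higher and 3 lower (median 0.30). The shares were 58.3% higher and 25% lower, where 30.0% and 30.1% of all tested genes were called so, or 60.1% in all. The list was chosen with earlier results known and carries no test. SOX4, a factor of intestinal secretory progenitors, stood at 117 ± 2 CPM in control and 352 ± 1 CPM in AHR siRNA libraries (SD, n = 3 each), a rise to 302% (edgeR adjusted p = 3.39e-13). CREB3L4, an endoplasmic reticulum bound factor, rose to 198% of control. The Notch ligand genes DLL1 and DLL4, named after their values were seen, rose to 220.1% and 225%, while HES1, the Notch target that represses ATOH1, fell to 54.3%, from 65.7 ± 4.8 to 35.6 ± 1.1 CPM (SD, n = 3 each). ELF3, an epithelial ETS factor, fell to 46.0% and KLF4, a factor of goblet cell differentiation, to 55.7%. SOX9 rose to 128%. FOXA1, like SOX9 named after its value was seen, rose to 119%. XBP1, which secretory cells use broadly, was listed at 0 in all 6 libraries, and so that entry was not read as a level.

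Enzymes that build mucin O-glycans were called in both directions. Of 35 listed, 27 passed the filter, 12 were called higher and 8 lower (median 0.18). The shares were 44.4% higher and 29.6% lower, against 30.0% and 30.1% over all tested genes. GCNT4, called higher, passed the filter through its AHR siRNA libraries alone and ST6GALNAC2, called lower, through its control libraries alone. The count is no support for a direction. GALNT1 and GALNT3, which start O-glycans by adding N-acetylgalactosamine, fell: GALNT1 from 134 ± 8 to 32.3 ± 0.1 CPM, or 24.0% of control (log2 fold change -2.06, SE 0.07, edgeR adjusted p = 9.95e-14), and GALNT3 from 80.5 ± 0.6 to 32.4 ± 0.6 CPM, or 40.2% (SD, n = 3 each). Other members of the same family rose, GALNT11 to 152% and GALNT2, named after its value was seen, to 136%. C1GALT1, which makes the core 1 structure, fell to 77.8%, and GCNT1, which branches it to core 2, rose to 196%. B3GALT5 and the sialyltransferase gene ST3GAL4 fell to 40.6% and 60.3%. C1GALT1 and ST3GAL4 were named after their values were seen.

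KLK10 lies in the kallikrein cluster of chromosome 19, whose other genes differed in direction. KLK6, KLK7 and KLK10 were called lower, KLK1, KLK15, KLK3 and KLK4 were called higher, and KLK14 was not called (-0.43, SE 0.26). KLK7 fell from 15.3 ± 1.5 to 3.74 ± 0.20 CPM (SD, n = 3 each), or 24.4% of control, and KLK6 to 79.9%. KLK3 rose from 0.783 ± 0.094 to 2.77 ± 0.68 CPM (SD, n = 3 each). KLK4 had 2, 2 and 1 counts in the controls and 42, 29 and 23 in the AHR siRNA libraries, a ratio of summed counts per depth of 19.5 with a 95% counting interval from 8.08 to 61.6. KLK15 had 7, 8 and 3 counts against 29, 38 and 21, a ratio of 5.08 (3.04 to 8.97). KLK3, KLK4 and KLK15 passed the filter through their AHR siRNA libraries alone. KLK9 and KLK8 were listed at 0 in all 6 libraries, and AC011473.4, which covers 93.7% and 40.05% of their exon bases on the same strand in GENCODE 29, was listed at 0 as well. Untested neighbours of KLK10 had few counts: KLK11 had 0, 2 and 1 in the controls and 6, 3 and 4 with AHR siRNA, and KLK12, named after its values were seen, had 0, 0 and 1 against 7, 7 and 4. Of the 15 listed genes of this group, which leaves out KLK1, KLK10 and KLK15 and holds 3 inhibitor genes, 5 were tested. Of these, 2 were called higher and 2 lower (40% each), against 30.0% and 30.1% of all tested genes.

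Products of the other secretory cell types of the intestine were mostly near the floor. Of 20 listed, 5 passed the filter, 3 were called higher and none lower (median 1.21). The share called was 60%, near the 60.1% over all tested genes. All of it was higher, against 30.0% higher over all tested genes. With no filter on low counts 2 listed genes were called lower. SCG5, a secretory granule chaperone of endocrine cells, rose from 11.5 ± 1.7 to 36.6 ± 2.0 CPM, the tuft cell channel gene TRPM5 from 1.20 ± 0.09 to 4.15 ± 0.66 CPM and the synaptic vesicle gene SYP from 0.830 ± 0.200 to 1.95 ± 0.47 CPM (SD, n = 3 each). SYP passed the filter through its AHR siRNA libraries alone, and the median of 1.21 is the value of SYP. Neither the count nor the median is support for a direction. DEFA5, DEFA6, GCG, SST and TAC1 had no count in any library, and CHGA and LYZ had at most 3. MMP7 had 14, 11 and 10 counts in the controls and 2, 3 and 8 with AHR siRNA. PLA2G2A had 14, 8 and 5 against 2, 5 and 2, and SCG2 10, 17 and 11 against 8, 7 and 7. In CPM the AHR siRNA libraries of MMP7, PLA2G2A and SCG2 lay below all controls, as for 31.7% of the tested genes, but these genes did not pass the filter. TPH1, which makes serotonin in enterochromaffin cells, stood at 2.69 ± 0.51 and 2.67 ± 0.50 CPM and the tuft cell marker AVIL at 5.78 ± 0.72 and 6.32 ± 1.59 CPM in control and AHR siRNA libraries (SD, n = 3 each), and neither was called. Those without a call were named after their values were seen.

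**Figure D5:**
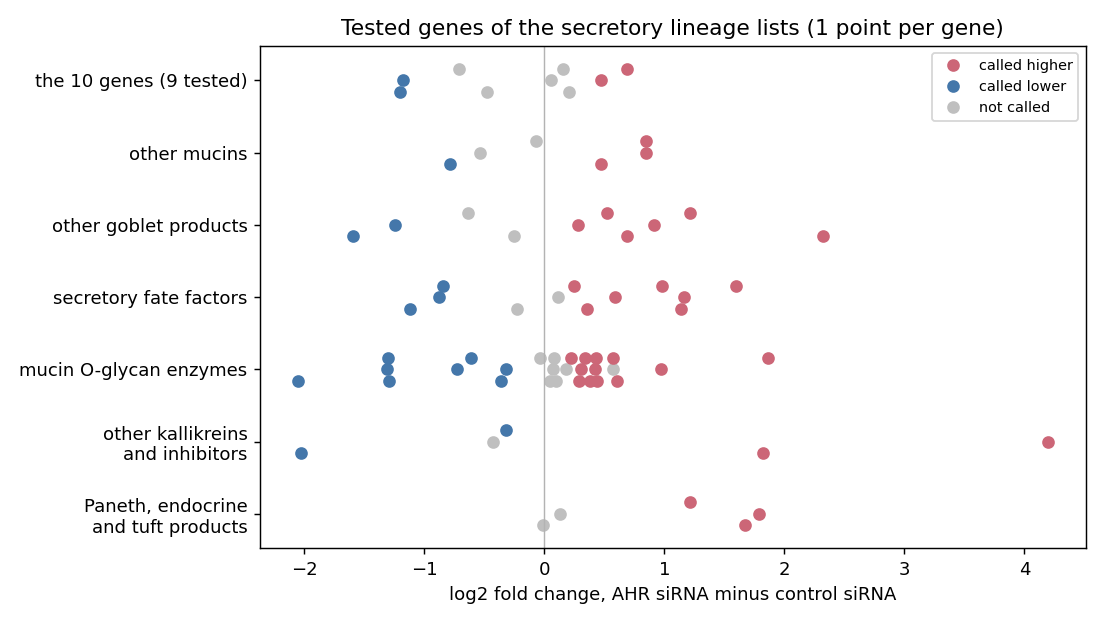
Log2 fold change, AHR siRNA minus control siRNA, of each tested gene in the 10 genes and in 6 related lists, with 1 point per gene, red for called higher, blue for called lower and grey for not called. The lists hold calls in both directions, except that of Paneth, endocrine and tuft products, in which the 3 called genes are higher. Of these, SYP passed the filter through its AHR siRNA libraries alone.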

How the data were processed

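Counts per versioned Ensembl gene ID, 1 table per library and 6 libraries, were used as the authors deposited them. The tools TopHat2 (2.0.11), TopHat and HTSeq and the builds hg19 and GRCh37 are named, with no role, per the submitters' processing notes. Strandedness and the handling of shared reads are not given in the sources consulted, so antisense and overlapping genes cannot be told apart. Symbols came from a gene name table that held 56321 of 60483 IDs. All 37 mitochondrially encoded genes stood at 0. Genes were kept by filterByExpr and tested with edgeR 4.0.16 in R 4.3.3 (TMM, glmQLFit and glmQLFTest, group as the only term); the SE is the log2 fold change over the square root of F. The procedure was tested on simulated data in which few genes changed, whereas 60.1% were called here. That test does not show how the scaling performs when most genes change. Lengths, GC content, overlaps and 3′ UTRs came from GENCODE 29 and upstream sequences from RefSeq GRCh38.p14; no coordinate was taken from the count tables. The annotation behind the counts is not given in the sources consulted: 56753 of the 60483 IDs are in GENCODE 29, 37168 with the same version, so levels per length and overlaps hold only as far as the gene models match. Alternatives were other scalings (DESeq2 size factors, upper quartile, library totals), 2 other filters, DESeq2 1.42.0, limma-voom 3.58.1, a replicate block, each library left out and, added after the data were seen, removal of GC and length trends (loess, span 0.4). Members, lists and tests were chosen with earlier results of these data known. Beyond AHR and the members, genes were named by rule: in each list up to 5 called genes of smallest p with at least 1 CPM, up to 3 called in the opposite direction, and genes next to a member. Libraries of 1 group differed by more than counting noise, with a chi-square per degree of freedom of 1.54 to 8.80. Same-numbered libraries deviated together with correlations of 0.23, -0.05 and 0.18, and differently numbered ones with -0.31 to 0.20. These values do not settle whether the numbers mark pairs, and pairs were not assumed. With the replicate block the SE of MUC5AC was 0.06, against 0.16 without it. Counting intervals cover counting error only.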

Additional observations from a re-analysis of the deposited data

How the results depend on the processing

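The calls of MUC5AC, MUC13, MUC20, KLK10 and AHR held in all 15 alternatives, with log2 fold changes of 0.47 to 0.88, -1.23 to -1.03, 0.37 to 0.62, -1.28 to -1.05 and -0.58 to -0.35. TFF1 and AGR2 were not called in 9 of 15 and called in 6; with the replicate block both passed (-0.48, edgeR adjusted p = 0.0277, and 0.16, adjusted p = 0.00599), and 9598 genes were called in all, against 8953. The numbers are not shown to pair the libraries. Leaving out 1 library moved the log2 fold change of MUC1 over -0.0692 to 0.16 (-0.0032 and -0.0225 without control siRNA replicates 1 and 2), and it was -0.25 after removal of the GC and length trends. For MUC5B it was 0.00771 with upper-quartile factors, 0.0761 with library totals, and -0.454 to 0.345 with 1 library left out (above 0 without control siRNA replicate 1, 0.15, or AHR siRNA replicate 3). Neither gene was called in any alternative, and the cause was not tested. The count of the 10 genes called lower ran from 2 to 4 when a library was left out, with MUC2 and TFF1 added without control siRNA replicate 2. The count of Paneth, endocrine and tuft products called lower was 0 in the reported test, 2 with no filter, and 0 to 1 when a library was left out. Scaling by library totals gave 9090 called genes, 5885 of them higher (64.7%), where TMM gave 4474 of 8953, and it moved the median log2 fold change by 0.15. Depth limits MUC1, MUC2 and SPDEF most.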

Other observations

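AGR2 and MUC5AC, the 2 most abundant members by CPM, deviated in opposite directions from one library to the next within both groups: AGR2 by 0.15, -0.01 and -0.14 (log2 CPM, from the mean of the group) in control replicates 1 to 3, where MUC5AC deviated by -0.40, 0.13 and 0.27. In AHR siRNA replicates 1 to 3 AGR2 deviated by 0.11, -0.00 and -0.11 and MUC5AC by -0.44, 0.04 and 0.40. In each group the library with the highest AGR2 had the lowest MUC5AC. The pattern was noticed after the values were seen and carries no test.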
